A study of Gallus gallus with 31 samples.

Results

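A set of 9 genes of the extracellular matrix and its cell contacts is described here in chicken fat: FBLN1, FBN3, FBN2, COL18A1, LAMB2, OPTC, THBS1, CTGF and ITGB1. They were chosen by name as matrix genes out of the 564 genes in the table analysed here, and all 9 passed the filter on low values. Gene identity follows the Entrez numbers of the table, which are 373979 for FBLN1, 395079 for FBN3, 374203 for FBN2, 373978 for COL18A1, 373980 for LAMB2, 395130 for OPTC, 373987 for THBS1, 374135 for CTGF (now named CCN2) and 374058 for ITGB1.

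Fat tissue was taken from male chickens at day 42 after hatch, all labelled Control, with no treatment beyond rearing under long light and free access to feed. The 31 polyA RNA libraries came from 2 depots, the abdominal fat and the cardiac fat, and from 2 lines, Ross 708 broilers of a commercial meat line and a line that the labels name only as Illinois. All Illinois libraries belonged to the trial Fall 13, with 7 abdominal and 8 cardiac. Ross was sampled in the trials Fall 12 and Fall 13, with 4 abdominal and 4 cardiac libraries in each. The labels do not say whether libraries came from separate birds, so a p-value here reflects library-to-library spread, which may be technical. As Illinois was sampled in Fall 13 alone, line was compared within Fall 13 only, and trial within Ross only. Levels are given in FPKM, which corrects fragment counts for the length of the transcript and the total of the library, so levels can be set side by side between genes. Each library is scaled to its own total, of which an abundant gene takes a part, so levels of different libraries are comparable only as far as that scaling allows.

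Fat cells sit in a mesh of matrix proteins. Fibrillins form microfibrils, on which elastin and fibulins are laid down and latent TGF-beta is stored. Laminins and collagens such as type XVIII build the basement membrane around each fat cell and each capillary, and integrins hold the cell to it. Matricellular proteins such as thrombospondin 1 do not build structure but tune growth factor signals and vessel growth.

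FABP4, the fatty acid carrier of fat cells, was abundant in every library, at 1959 to 29593 FPKM. Illinois cardiac libraries 1107 and 1112 and Ross cardiac Fall 12 libraries 1208 and 1209 held more than 10 FPKM of CASQ2, a calcium store protein of heart muscle, and calls that were lost without these 4 are marked. Total reads are not in the table. Relative depth, read from the steps between low values, was 1.18 to 1.61 in Illinois abdominal and 0.524 to 0.751 in Ross abdominal Fall 13 libraries, so line and depth cannot be told apart in abdominal fat. The same holds for the depots of Ross Fall 12, at 0.592 to 0.700 in abdominal and 0.911 to 1.04 in cardiac libraries. It also holds for line in cardiac fat, at 0.919 to 2.26 in Illinois and 0.658 to 0.914 in Ross Fall 13 libraries. These ranges nearly touch. Between the Ross trials in cardiac fat the ranges crossed only slightly, at 0.911 to 1.04 in Fall 12 and 0.658 to 0.914 in Fall 13. Trial and depth are thus hard to tell apart there as well. The depots of Ross Fall 13 were at 0.524 to 0.751 in abdominal and 0.658 to 0.914 in cardiac fat. These crossed only through abdominal 1198 and cardiac 1206. In Illinois, all cardiac libraries but 1111 and 1113 lay below every abdominal one, at 0.919 to 1.14 against 1.18 to 1.61. Depot and depth are thus hard to tell apart in these birds too. In whole tissue, fewer cells of a type and less RNA per cell cannot be told apart.

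FBLN1 was higher in cardiac than in abdominal fat of both lines, and OPTC was higher in abdominal fat of both. COL18A1 and ITGB1 were also higher in abdominal fat of both lines, but in Ross the COL18A1 difference was -0.14 in Fall 12 (adjusted p = 0.844) and -2.14 in Fall 13, and the ITGB1 call was lost without the CASQ2 libraries. FBN3 had higher values in cardiac fat, but it passed the filter on low values through cardiac libraries alone, so its depot differences are given as a description with no test and are left out of the depot counts. Between the Ross trials, THBS1 and FBLN1 were far lower in abdominal fat in Fall 13 than in Fall 12. Fold changes below are differences on the log2(FPKM + 1) scale, which understates the change of genes with low values, with standard errors (SE) from limma. A gene was called where its Benjamini-Hochberg adjusted p over the 423 tested genes was below 0.05. Between the Ross depots, averaged over trials, 5 of the other 8 genes were called, 2 higher and 3 lower in cardiac fat, where 28.8% of all tested genes were called, 18.7% higher and 10.2% lower. That background split was 79 genes higher and 43 lower, and 59 and 63 after quantile normalization. Between the Illinois depots 5 of 8 were called, 1 higher and 4 lower, against 19.1% of all tested genes, 8.04% higher and 11.1% lower. That split was 34 and 47 genes, and 53 and 43 with upper quartile scaling. In Ross Fall 12 alone, limma called 0 of 8, where 13.0% of tested genes were called, 8.27% higher and 4.73% lower. At an unadjusted p below 0.05 there were 3 of 8 by limma, against 27.7% of tested genes, and 1 of 8 by the exact permutation test. In Ross Fall 13 alone, 4 of 8 were called, 2 higher and 2 lower, where 15.8% of tested genes were, 12.1% higher and 3.78% lower. After quantile normalization the 35 higher and 20 lower genes of Fall 12 became 27 and 33, and the 51 and 16 of Fall 13 became 34 and 39. These counts describe genes picked with results of the same libraries known.

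**Figure D1:**
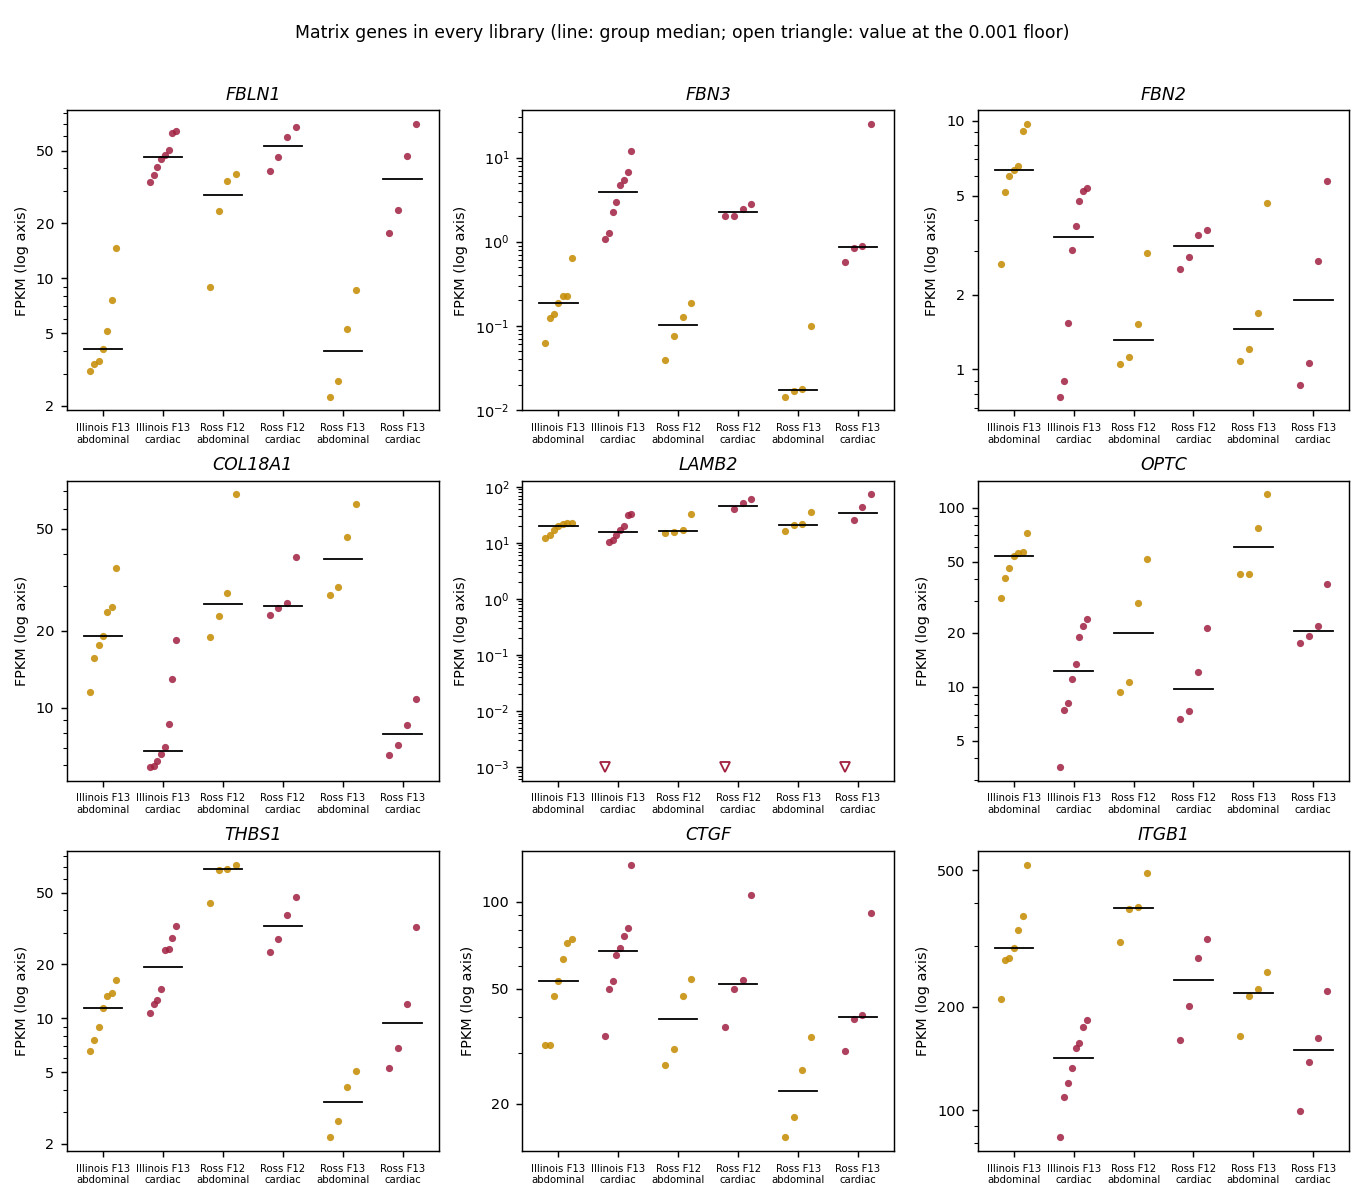
FPKM (log axis) of the 9 matrix genes in each of the 31 libraries, by line, trial and depot, with gold for abdominal and red for cardiac fat and a line at each group median. FBLN1 and FBN3 sit higher in cardiac fat, OPTC and ITGB1 lower, THBS1 has its highest median in Ross abdominal fat of Fall 12, and LAMB2 is at the 0.001 floor in 3 cardiac libraries.

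Fibulin-1, the product of FBLN1, is a secreted glycoprotein of elastic fibres and basement membranes that binds fibronectin and laminin. In Illinois abdominal fat FBLN1 ran from 3.11 to 14.5 FPKM with a median of 4.11, and in Illinois cardiac fat from 33.4 to 64.4 with a median of 46.2. The 2 depots did not overlap, and the abdominal library nearest to the cardiac ones was 1092. The depot difference was 2.94 on the log2 scale (SE 0.32, adjusted p = 1.36e-07, limma).

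In Ross, FBLN1 was at 8.98, 23.4, 34.0 and 37.4 FPKM in abdominal fat of Fall 12 and at 38.4, 46.3, 59.6 and 67.4 in cardiac fat of the same trial. In Fall 13 it was at 2.24, 2.74, 5.24 and 8.67 in abdominal fat and at 17.6, 23.7, 46.4 and 69.9 in cardiac fat. The depots did not overlap in either trial, but in Fall 12 the highest abdominal library lay just under the lowest cardiac one. Averaged over trials the depot difference was 1.95 (SE 0.31, adjusted p = 3.03e-05, limma). It was 2.76 in Fall 13 (adjusted p = 5.98e-05) and 1.14 in Fall 12, which was not called (adjusted p = 0.0871). The Fall 12 difference was called with upper quartile scaling (1.22, adjusted p = 0.0475) and after quantile normalization (1.21, adjusted p = 0.0408). The test of the difference between the trials' depot effects was not passed either (1.62, 95% interval 0.35 to 2.89, adjusted p = 0.202).

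Abdominal fat itself changed in FBLN1 between the Ross trials, by -2.20 in Fall 13 against Fall 12 (SE 0.44, adjusted p = 0.000619), and all 4 Fall 13 libraries lay below all 4 of Fall 12, the nearest 2 being 8.67 and 8.98 FPKM. In cardiac fat the same comparison gave -0.58 (adjusted p = 0.441), with overlapping groups. Between the lines within Fall 13, FBLN1 differed by -0.25 in abdominal fat (95% interval -1.04 to 0.55) and by -0.43 in cardiac fat (95% interval -1.21 to 0.35), Ross minus Illinois, and neither was called.

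Genes listed as markers of some other cells also had higher medians in cardiac fat, as FBLN1 did, while others did not. Of the 15 fibroblast markers listed, PRRX1 alone was in the table, and it was at 2.52 to 26.1 FPKM in Illinois abdominal, 28.7 to 75.1 in Illinois cardiac, 11.6 to 68.0 in Ross abdominal Fall 12, 3.08 to 9.17 in Ross abdominal Fall 13, 34.7 to 48.6 in Ross cardiac Fall 12 and 42.2 to 162 in Ross cardiac Fall 13 libraries. Of 14 genes listed for mesothelium and epicardium, the layers that cover the abdominal organs and the heart, 4 were in the table (TBX18, ALDH1A1, TBX20 and TBX5), and all 4 were called higher in cardiac fat in both lines. Of all tested genes, 18.7% were called higher in Ross cardiac fat and 8.04% in Illinois cardiac fat. Whether the 4 listed genes mark those layers alone was not tested. Their summed level was 1.90 to 23.2 FPKM in Illinois abdominal and 62.6 to 127 in Illinois cardiac libraries. In Ross it was 22.6 to 35.9 in abdominal and 57.4 to 188 in cardiac fat of Fall 12, and 2.87 to 7.21 and 35.8 to 42.8 in those of Fall 13. Median sums of the leukocyte markers PTPRC and IGJ were also higher in cardiac fat, with overlap. They were 35.7 against 20.4 FPKM in Illinois, 92.1 against 25.8 in Ross Fall 12 and 41.8 against 35.0 in Ross Fall 13. The median of CHRNA3, the 1 nerve and glia gene measured, was higher there as well. Medians for endothelium and for CALD1 of smooth muscle and pericytes were lower. Those of heart muscle and fat cells went both ways. The part of these markers in the FBLN1 result was not tested.

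FBN3 encodes fibrillin-3, a microfibril protein known in human mainly from fetal tissue. FBN3 was low in abdominal fat, at 0.0626 to 0.639 FPKM (median 0.186) in Illinois, and higher in Illinois cardiac fat at 1.08 to 11.9 (median 3.87). The 2 depots did not overlap. The depot difference was 1.94 (SE 0.42), and since no abdominal library reached 1 FPKM it is given with no test.

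In Ross cardiac fat FBN3 was at 1.997, 2.03, 2.42 and 2.80 FPKM in Fall 12 and at 0.575, 0.829, 0.886 and 25.0 in Fall 13. In Ross abdominal fat it was at 0.0395, 0.0765, 0.126 and 0.187 in Fall 12 and at 0.0143, 0.0168, 0.0177 and 0.0986 in Fall 13. Every Ross cardiac library exceeded every Ross abdominal one. By the size of the steps in its values, the Ross abdominal levels rested on about 2 to 24 fragments each, which could be off by a whole factor.

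Averaged over the Ross trials the depot difference of FBN3 was 1.66 (SE 0.40), with 1.58 in Fall 12 and 1.73 in Fall 13, again with no test. With a pseudocount of 0.1 in place of 1 the Ross difference was 3.74, the Illinois difference 3.59 and the Fall 12 difference 3.58. The Fall 13 value leaned on 1 cardiac library: without 1206, at 25.0 FPKM, it was 0.76, and with array weights, which down-weight libraries far from the rest, it was 1.17. Without 1206, the line difference in cardiac fat became called, at -1.41 for Ross minus Illinois (adjusted p = 0.0260), against -0.44 with it.

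**Figure D2:**
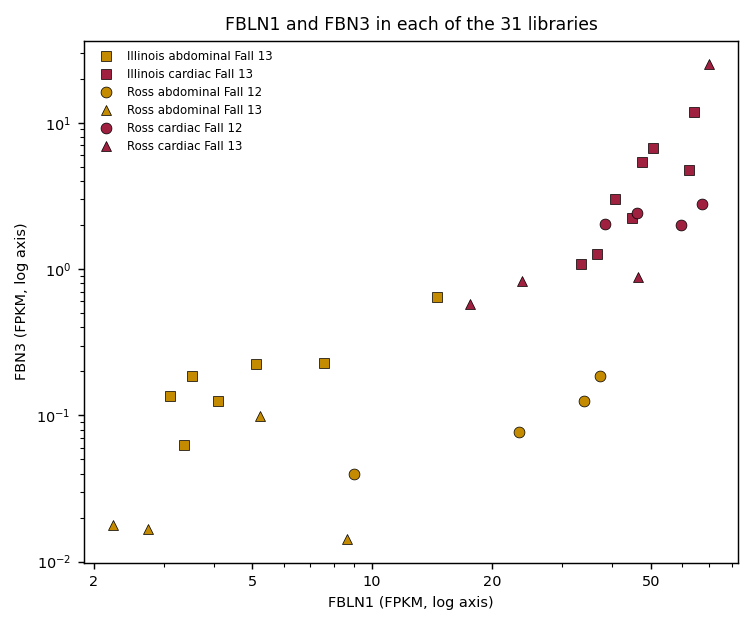
FBN3 against FBLN1 in each library, both in FPKM on log axes, coloured by depot with marker shape for line and trial. Cardiac libraries sit at the upper right; the Ross abdominal libraries of Fall 12 reach 37.4 FPKM of FBLN1 with FBN3 no higher than 0.187.

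Fibrillin-2, the product of FBN2, is the microfibril protein of developing tissues. FBN2 was low in every group and varied widely. It ran from 2.65 to 9.69 FPKM (median 6.35) in Illinois abdominal fat and from 0.777 to 5.36 (median 3.40) in Illinois cardiac fat, with overlap. In Ross abdominal fat it was at 1.05, 1.12, 1.52 and 2.94 in Fall 12 and at 1.08, 1.203, 1.69 and 4.66 in Fall 13. Ross cardiac libraries held 2.53, 2.83, 3.47 and 3.65 in Fall 12 and 0.867, 1.06, 2.73 and 5.71 in Fall 13. The Illinois abdominal libraries were the highest as a group.

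FBN2 was lower in cardiac than in abdominal fat of Illinois by -0.94 (SE 0.32, adjusted p = 0.0350), the opposite direction to FBLN1 and FBN3. This call was lost under several settings, among them without the CASQ2 libraries (-1.02, adjusted p = 0.0517) and without any of abdominal 1093, 1096, 1097 and 1098 and cardiac 1108, 1109 and 1110 (adjusted p from 0.0541 to 0.0857). In Ross the depot difference was 0.40 (95% interval -0.23 to 1.02) and was not called. In abdominal fat of Fall 13, FBN2 was lower in Ross than in Illinois by -1.30 (SE 0.38, adjusted p = 0.0231), and the call was lost without Ross 1195, 1196 or 1198 (adjusted p from 0.0616 to 0.0778).

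COL18A1 encodes the chain of type XVIII collagen, a basement membrane collagen whose end fragment, endostatin, restrains vessel growth. COL18A1 ran from 11.6 to 35.1 FPKM (median 19.1) in Illinois abdominal and from 5.89 to 18.5 (median 6.82) in Illinois cardiac fat. The groups overlapped only through cardiac libraries 1109 and 1112. It was lower in cardiac fat by -1.18 (SE 0.27, adjusted p = 0.00166, limma).

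In Ross the pattern differed between the trials. In Fall 12 COL18A1 was at 19.0, 22.8, 28.0 and 68.2 FPKM in abdominal fat and at 23.1, 24.5, 25.6 and 39.0 in cardiac fat, which overlap almost fully. In Fall 13 it was at 27.6, 29.6, 46.5 and 62.4 in abdominal fat and at 6.57, 7.16, 8.61 and 10.8 in cardiac fat, with a clear gap. The average over trials was -1.14 (SE 0.26, adjusted p = 0.00164), made of -0.14 in Fall 12 (adjusted p = 0.844) and -2.14 in Fall 13 (adjusted p = 0.000116). The difference between these 2 depot effects was -2.002 (95% interval -3.06 to -0.94, adjusted p = 0.0492, limma), where 1.18% of tested genes were called, 0.709% with a positive and 0.473% with a negative difference. Of the 8 genes other than FBN3, 2 were called in that test, 1 in each direction. The COL18A1 call was lost in 24 of 31 fits that left out 1 library, with adjusted p from 0.0519 to 0.149 and the difference from -2.13 to -1.78.

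Between the trials, COL18A1 was lower in Ross cardiac fat of Fall 13 than of Fall 12 by -1.64 (SE 0.37, adjusted p = 0.00400), with no overlap, and differed by 0.37 in abdominal fat (adjusted p = 0.507). In abdominal fat of Fall 13 it was higher in Ross than in Illinois by 0.94 (SE 0.32, adjusted p = 0.0475). This call was lost in 15 of 31 fits without 1 library, 7 of them libraries of the groups compared (Illinois 1092, 1094, 1096 and 1099 and Ross 1196, 1197 and 1198), with adjusted p from 0.0503 to 0.180. It was also lost when the trial was modelled as 1 additive term (0.44, adjusted p = 0.416).

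The median summed level of endothelial markers was lower in cardiac fat as well, with overlap, also in Ross Fall 12, where the COL18A1 difference was -0.14. Of 15 listed, 5 were in the table (CDH5, CLDN5, FLT1, SOX18 and ERG), none of them at the floor throughout. Their summed level was 172 to 396 FPKM in Illinois abdominal and 83.1 to 244 in Illinois cardiac libraries. In Ross it was 234 to 394 and 130 to 305 in abdominal and cardiac fat of Fall 12, and 174 to 310 and 103 to 204 in those of Fall 13. Of these 5 markers, 3 were called lower in Illinois cardiac fat, beside 11.1% of all tested genes. In Ross cardiac fat 2 were called lower, beside 10.2% of all tested genes. Their part in the result was not tested.

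Laminin beta 2, the product of LAMB2, is a chain of basement membrane laminins, best known in mammals from the kidney filter and the nerve-muscle junction. LAMB2 was listed at 0.001 FPKM, the floor of the table, in 3 cardiac libraries: Illinois 1110, Ross Fall 12 1210 and Ross Fall 13 1207. A floor value here is not a measured level, since the other libraries of the same groups held 10.46 to 73.7 FPKM. Outside those 3 libraries, LAMB2 was at 12.0 to 22.3 (median 19.9) in Illinois abdominal and at 10.46 to 33.3 (median 17.2) in Illinois cardiac fat.

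Ross abdominal libraries held LAMB2 at 15.2, 15.6, 17.1 and 32.7 FPKM in Fall 12 and at 16.4, 20.8, 21.8 and 35.8 in Fall 13. The Ross cardiac libraries above the floor held 40.7, 51.5 and 60.6 in Fall 12 and 25.5, 43.9 and 73.7 in Fall 13. These cardiac values lay above the abdominal ones in Fall 12 and overlapped them in Fall 13.

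With the floor values kept, LAMB2 was called by limma in 0 of the 10 comparisons, with 0 at an unadjusted p below 0.05 by limma or by the exact permutation test, and the Ross depot difference was -0.26 (SE 0.79, adjusted p = 0.835, limma). With the floor values set to missing it was 1.13 (SE 0.27, adjusted p = 0.00276), higher in cardiac fat, and 1.35 in Fall 12 (adjusted p = 0.0195). The line difference in cardiac fat became 1.24 (SE 0.35, adjusted p = 0.0388), Ross above Illinois, against 0.40 with the floor kept. Setting the floor values to missing was chosen after the data were seen.

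OPTC encodes opticin, a small leucine-rich proteoglycan known from the vitreous of the eye. OPTC was present in all 31 libraries, from 3.57 to 119 FPKM. In Illinois it ran from 31.5 to 72.1 (median 53.8) in abdominal and from 3.57 to 23.9 (median 12.3) in cardiac fat, with no overlap. It was lower in cardiac fat by -1.98 (SE 0.36, adjusted p = 0.000215, limma).

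In Ross, OPTC was at 9.38, 10.6, 29.5 and 51.4 FPKM in abdominal fat of Fall 12, against 6.61, 7.37, 12.0 and 21.4 in cardiac fat. In Fall 13 it was at 42.4, 42.7, 77.2 and 119 in abdominal fat, against 17.6, 19.2, 22.0 and 37.7 in cardiac fat. The depots overlapped in Fall 12 and not in Fall 13. The average over trials was -1.14 (SE 0.35, adjusted p = 0.0153), with -0.84 in Fall 12 (not called) and -1.43 in Fall 13 (adjusted p = 0.0480). The Fall 13 call was lost in 15 of 31 fits without 1 library, including abdominal 1195 and 1196 and cardiac 1205, 1206 and 1207, with adjusted p from 0.0506 to 0.153.

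OPTC was the only 1 of the 9 genes called higher in Ross abdominal fat of Fall 13 than of Fall 12, by 1.63 (SE 0.50, adjusted p = 0.0157). Abdominal libraries of the trials overlapped through Fall 12 library 1202, and the call was lost without Fall 12 1200 or 1201 or Fall 13 1195 (adjusted p from 0.0571 to 0.0714). The same comparison in cardiac fat gave 1.04 (95% interval 0.03 to 2.06, adjusted p = 0.203).

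**Figure D3:**
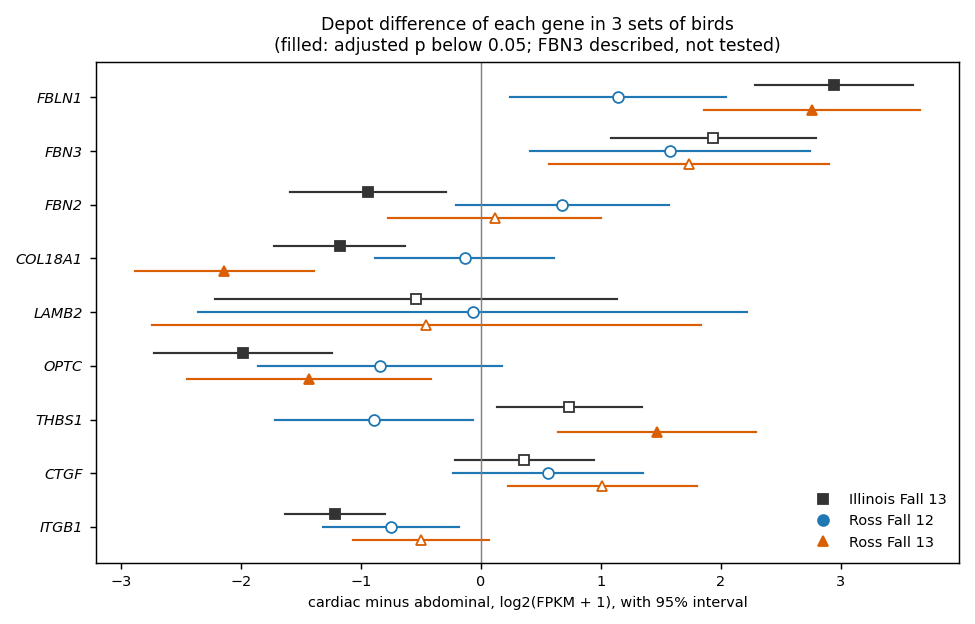
Depot differences (cardiac minus abdominal, log2 of FPKM + 1) of the 9 genes in Illinois, Ross Fall 12 and Ross Fall 13, with bars for 95% intervals and filled markers for an adjusted p below 0.05, except FBN3, drawn open because its differences are a description. FBLN1 and FBN3 lie above 0 in all 3, OPTC and ITGB1 below 0, while COL18A1 lies at -0.14 in Ross Fall 12 and at -2.14 in Ross Fall 13.

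Thrombospondin 1, the product of THBS1, is a matricellular protein that restrains vessel growth and can release active TGF-beta from its latent form. THBS1 was at 43.8, 67.3, 68.0 and 72.0 FPKM in Ross abdominal fat of Fall 12 and at 2.18, 2.67, 4.16 and 5.10 in that of Fall 13. All 4 Fall 13 libraries lay far below all 4 of Fall 12. The difference was -3.84 (SE 0.40, adjusted p = 1.06e-07, limma). It was the largest on the log2(FPKM + 1) scale of the 90 differences examined over 9 genes and 10 comparisons. That scale understates FBN3, whose medians differed 49.8-fold between the Ross depots of Fall 13. Markers of some other cells were lower in the same Fall 13 libraries. CALD1, the 1 gene in the table of 12 listed for smooth muscle and pericytes, was at 130 to 196 FPKM in Fall 12 and 44.4 to 64.4 in Fall 13. As given above, PRRX1 and the summed genes listed for mesothelium and epicardium did not overlap between these trials in abdominal fat. From Fall 12 to Fall 13 in this fat, median marker sums rose for leukocytes (25.8 to 35.0 FPKM) and fat cells (13417 to 14205). They also rose for heart muscle (0.0661 to 6.27) and nerve and glia (0.117 to 0.230), and fell for endothelium (262 to 229). Of these sums, those of heart muscle alone did not overlap. The part of all these markers in the result was not tested. In Ross cardiac fat THBS1 was at 23.3, 27.6, 37.7 and 47.4 in Fall 12 and at 5.29, 6.86, 12.0 and 32.4 in Fall 13. These groups overlapped through Fall 13 library 1206. The cardiac difference was -1.48 (SE 0.40, adjusted p = 0.0184), and its call was lost without Fall 12 1210 or Fall 13 1205 or 1207 (adjusted p from 0.0671 to 0.0938).

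THBS1 was thus lower in cardiac than in abdominal fat of Ross in Fall 12 by value (-0.89, adjusted p = 0.147, not called) and higher in Fall 13 (1.47, adjusted p = 0.0123). The Fall 13 call was lost without cardiac 1206 (0.98, adjusted p = 0.0898). The difference between the trials' depot effects was 2.36 (95% interval 1.19 to 3.53, adjusted p = 0.0409). It was 2.0 without the CASQ2 libraries (adjusted p = 0.168), and its call was lost in 11 of 31 fits that left out 1 library, with adjusted p from 0.0519 to 0.115.

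In Illinois, THBS1 ran from 6.56 to 16.4 FPKM (median 11.4) in abdominal and from 10.8 to 32.7 (median 19.3) in cardiac fat, with overlap and a difference of 0.74 that was not called (adjusted p = 0.0797). It was called with upper quartile and median ratio scaling (adjusted p = 0.0241 and 0.0431), with array weights (adjusted p = 0.0498) and without Ross cardiac library 1206, which is not among the libraries compared but shares the estimate of spread (adjusted p = 0.0348). All Illinois abdominal libraries lay above all Ross abdominal libraries of the same trial, and the line difference was -1.41, Ross minus Illinois (SE 0.36, adjusted p = 0.00980). With the trial as 1 additive term it was -0.82 (adjusted p = 0.167).

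CTGF, connective tissue growth factor, is a matricellular protein induced by TGF-beta. CTGF ran from 31.8 to 74.3 FPKM (median 53.4) in Illinois abdominal and from 34.3 to 135 (median 67.3) in Illinois cardiac fat, which overlapped (0.36, adjusted p = 0.418). In Ross abdominal fat it was at 27.3, 30.9, 47.3 and 53.9 in Fall 12 and at 15.3, 18.0, 26.2 and 34.0 in Fall 13. In Ross cardiac fat it was at 36.7, 50.04, 53.5 and 106 in Fall 12 and at 30.5, 39.2, 40.4 and 91.4 in Fall 13. Depots overlapped in both trials, with 1 high cardiac library in each, 1208 and 1206.

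The Ross depot difference of CTGF was 0.78 (SE 0.27, adjusted p = 0.0313), and it was called in neither trial alone. The call was lost without the CASQ2 libraries (0.72, adjusted p = 0.0829), under median ratio scaling (0.68, adjusted p = 0.0755), and without any of abdominal 1196, 1197, 1199 and 1201 and cardiac 1206 and 1208 (adjusted p from 0.0603 to 0.0883). In abdominal fat of Fall 13, CTGF was lower in Ross than in Illinois by -1.16 (SE 0.34, adjusted p = 0.0235), a call lost without Ross 1196 or 1197 (adjusted p from 0.0837 to 0.0916).

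ITGB1 encodes the integrin beta 1 subunit, which pairs with many alpha subunits into receptors for collagen, laminin and fibronectin. It was the most abundant of the 9 genes, with a median of 214 FPKM over all libraries. In Illinois, ITGB1 ran from 211 to 519 (median 297) in abdominal and from 83.3 to 184 (median 142) in cardiac fat, with no overlap. It was lower in cardiac fat by -1.22 (SE 0.20, adjusted p = 8.23e-05, limma).

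In Ross, ITGB1 was at 309, 386, 391 and 489.7 FPKM in abdominal and at 160.3, 201, 277 and 316 in cardiac fat of Fall 12. In Fall 13 it was at 164, 214, 226 and 252 in abdominal and at 99.3, 138, 162 and 222 in cardiac fat. Depots overlapped in both trials, in Fall 12 through cardiac library 1211 alone. The Ross depot difference was -0.63 (SE 0.20, adjusted p = 0.0165), and without the CASQ2 libraries -0.45 (adjusted p = 0.105). Of 15 fat cell markers listed, FABP4, PPARG and CAV1 were in the table. All 3 were called lower in Illinois cardiac fat, beside 11.1% of all tested genes. Their summed level was 2107 to 15498 FPKM there and 16655 to 30222 in Illinois abdominal fat. In Ross Fall 12 the sum was 12466 to 17150 (median 13417) in abdominal and 5039 to 17178 (median 16821) in cardiac fat. In Ross Fall 13 it was 13960 to 15672 (median 14205) in abdominal and 8779 to 26331 (median 22185) in cardiac fat. The median sum was thus higher in cardiac fat in each Ross trial, with overlap, while ITGB1 was lower there. FABP4 made up most of this sum, so the sum does not show how PPARG and CAV1 differed between the Ross depots. Across all libraries, CAV1 and ITGB1 had a Spearman correlation of 0.85, and of 0.73 for deviations from the group means. The part of these markers in the ITGB1 result was not tested.

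ITGB1 was lower in Ross abdominal fat of Fall 13 than of Fall 12 by -0.88 (SE 0.28, adjusted p = 0.0188), with no overlap. This comparison depends on scaling: the median of all tested genes was -0.30, and with upper quartile, quantile or median ratio scaling the ITGB1 difference was -0.51, -0.49 and -0.45 and was not called (adjusted p = 0.119, 0.184 and 0.171). The call was also lost without Fall 12 1202 or Fall 13 1198 (adjusted p = 0.0738 at most).

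Between the Ross trials, 4 of the 9 genes were called in abdominal fat, OPTC higher in Fall 13 and THBS1, FBLN1 and ITGB1 lower, where 25.8% of all tested genes were called, 3.31% higher and 22.5% lower. That split was 14 genes higher and 95 lower, and 38 and 61 with upper quartile scaling. THBS1, FBLN1 and OPTC were called under all 3 scalings, with THBS1 from -3.50 to -3.20 and FBLN1 from -1.87 to -1.67. In cardiac fat 2 of 9 were called, both lower in Fall 13 (COL18A1 and THBS1), where 10.4% of tested genes were called, 0.709% higher and 9.69% lower (3 and 41 genes, or 22 and 26 with median ratio scaling). Between lines, 4 of 9 were called in abdominal fat, COL18A1 higher in Ross and FBN2, CTGF and THBS1 lower, against 15.8% of tested genes, 3.31% higher and 12.5% lower (14 and 53 genes, or 39 and 43 with median ratio scaling). FBN3 is among the 9 but was under 1 FPKM in every abdominal library, where the log2(FPKM + 1) scale leaves little room for a call. Its mean in Ross abdominal fat was 0.161 of that in Illinois, a ratio that includes the high Illinois library 1092 (0.639 FPKM). The Ross values rested on about 2 to 16 fragments each. On the log2(FPKM + 1) scale the difference was -0.23 (unadjusted p = 0.0333, adjusted p = 0.126, exact permutation test). In cardiac fat limma called 0 of 9, with 1 at an unadjusted p below 0.05 (OPTC) and 0 by the exact permutation test, while 21.7% of tested genes had an unadjusted p below 0.05. By adjusted p, 5.67% of tested genes were called, 4.49% higher and 1.18% lower (19 and 5 genes, or 9 and 22 with upper quartile scaling). THBS1 was called there without Ross library 1206 (-1.17, adjusted p = 0.0486) and with array weights (-1.05, adjusted p = 0.0351), against -0.68 with all libraries.

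**Figure D4:**
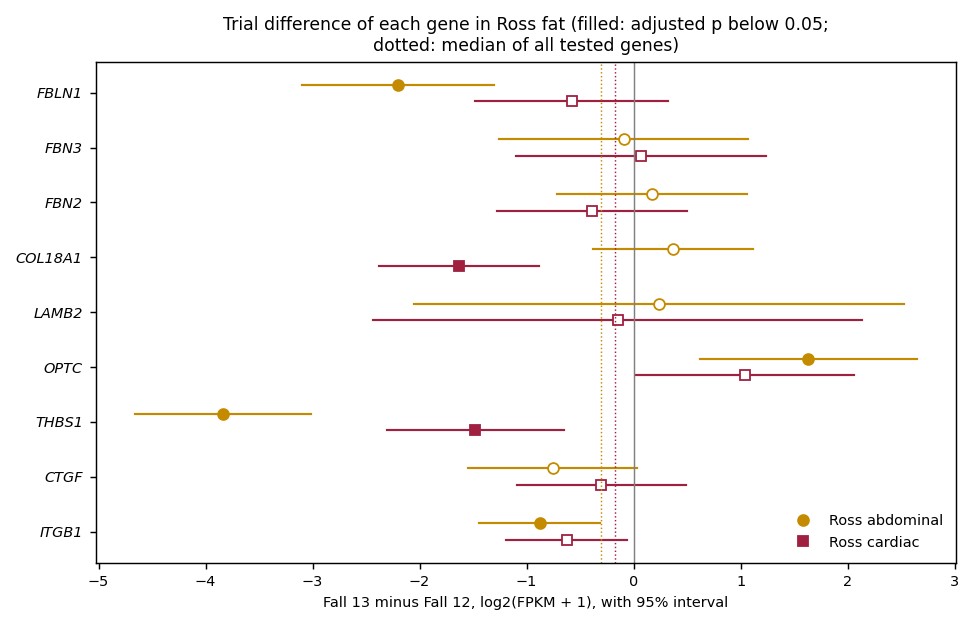
Trial differences in Ross (Fall 13 minus Fall 12, log2 of FPKM + 1) of the 9 genes in abdominal and cardiac fat, with bars for 95% intervals and filled markers for an adjusted p below 0.05. THBS1 in abdominal fat stands farthest from 0 at -3.84, OPTC in abdominal fat lies at 1.63, and COL18A1 is called in cardiac fat alone at -1.64.

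The depot effects of the lines were compared within Fall 13. For this test limma called 0 of the 8 genes other than FBN3, with 2 at an unadjusted p below 0.05 (COL18A1 and ITGB1) where 21.3% of tested genes had one, against 3.31% of tested genes, all with a more positive depot effect in Ross (14 and 0 genes, or 6 and 4 with median ratio scaling). For FBN3 the difference (Ross minus Illinois) was -0.20, given with no test. The differences with 95% intervals were -0.18 for FBLN1 (-1.30 to 0.93), 0.55 for OPTC (-0.71 to 1.81), 0.72 for ITGB1 (0.01 to 1.42), -0.96 for COL18A1 (-1.89 to -0.03) and 1.05 for FBN2 (-0.05 to 2.15). These intervals are wide, so the test does not show that the lines act alike. When the trial was modelled as 1 additive term, FBN2 was called, at 1.33 (adjusted p = 0.0473).

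Ordered by group mean, the 6 groups of each gene give 45 neighbouring pairs, and in 43 of them the ranges of the 2 neighbours overlapped. The order was set by the same values and no share over all tested genes was computed, so this count is a description only. The gap in FBN3 lay between Illinois abdominal fat (mean 0.228 FPKM) and Ross cardiac fat of Fall 12 (mean 2.31), and the means of all 3 abdominal groups lay below those of all 3 cardiac groups. The gap in THBS1 lay between Ross abdominal fat of Fall 13 (mean 3.53), the lowest group, and Illinois abdominal fat (mean 11.1), while Ross abdominal fat of Fall 12 was the highest at 62.8. FBLN1 means rose from 4.72 in Ross abdominal fat of Fall 13 through 5.91 in Illinois abdominal, 25.9 in Ross abdominal of Fall 12, 39.4 in Ross cardiac of Fall 13 and 47.6 in Illinois cardiac to 52.9 in Ross cardiac fat of Fall 12.

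Of the 32 genes of the matrix lists in the table, 23 were outside the 9, and 19 of those were tested. Between the Ross depots 4 of 19 were called, all higher in cardiac fat, where 28.8% of all tested genes were called and 18.7% were higher. They were TIMP2, an inhibitor of matrix proteases (0.86, adjusted p = 0.0105), MMP2, a gelatin-cutting protease (0.85, adjusted p = 0.0414), SMAD3, a transducer of TGF-beta signals (0.50, adjusted p = 0.00917), and ILK, a kinase at integrin contacts (0.50, adjusted p = 0.00639). Between the Illinois depots 0 of 19 were called by limma, with 6 at an unadjusted p below 0.05, beside 19.1% and 28.8% of all tested genes. The median over these 19 was 0.11 in Ross and -0.04 in Illinois, beside medians of all tested genes of 0.10 and -0.02.

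Between the Ross trials in abdominal fat, 8 of these 19 matrix genes were called, all lower in Fall 13, where 25.8% of all tested genes were called and 22.5% were lower, with a median of -0.61 against -0.30 over all tested genes. The largest were FBN1, the main fibrillin of adult tissue (-3.69, adjusted p = 0.00243), OGN, a small proteoglycan (-1.64, adjusted p = 0.0111), MMP2 (-1.53, adjusted p = 0.0116) and TGFBR1, a receptor for TGF-beta (-1.47, adjusted p = 0.000172). In cardiac fat 3 of 19 were called, also lower, where 10.4% of all tested genes were called and 9.69% were lower: ITGA3, an integrin alpha subunit (-1.09, adjusted p = 0.0188), ADAM10, a membrane protease (-0.93, adjusted p = 0.0418), and TGFBR1 (-0.88, adjusted p = 0.0252).

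Across the 31 libraries, the gene most like FBLN1 was FZD1, a Wnt receptor, with a Spearman correlation of 0.92 over all libraries and 0.84 for deviations from the 6 group means. FBN3 followed at 0.87 and 0.62, and TBX18 at 0.85 and 0.54. For FBN3 the nearest was ID4 at 0.91 and 0.69. OPTC was most like DBI (0.85 and 0.50), THBS1 most like NR2F2 (0.81 and 0.45), and COL18A1 most like PDGFB (0.73 and 0.41). ITGB1 was nearest to SGK1 (0.87 and 0.47), then to CLDN5, a tight junction protein of endothelium (0.86 and 0.70), and CAV1, a coat protein of caveolae (0.85 and 0.73). CTGF reached 0.68 at most, with FBN3, while LAMB2 with FBP2 and FBN2 with TERF2IP reached only 0.53 and 0.51. The libraries share groups and depth, so these correlations only describe them.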

How the data were processed

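Stranded polyA RNA libraries of frozen fat were made with an Illumina kit, per the labels' protocols, and the authors' tools were TopHat, Bowtie and Cufflinks, per the submitters' processing notes. Tool versions, genome build and annotation: not given in the sources used here. FPKM was inferred as the unit of the deposited values, since Cufflinks reports it and the values fall in its range. Of 567 lines, 1 was incomplete and 2 were exact duplicates, leaving 564 genes. The incomplete line was the last and broke off, so the table may be cut and genes after it may be missing. Shares over all tested genes and counts of listed genes in the table refer to these genes only. FPKM divides by each library's own total, so an abundant gene lowers all others. A value of 0.001 is a floor.

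Values were analysed as log2(FPKM + 1) in genes that reached 1 FPKM in 7 or more libraries, in R 4.3.3 with limma 3.58.1 and statmod 1.5.0 (trend and robust moderation). The fit held the means of the 6 groups of line, depot and trial over all 31 libraries. A trial term shared by both depots was an alternative, as were other pseudocounts, filters, scalings, array weights, exact permutation and leaving out libraries. Tests were two-sided and were checked on simulated data. The 9 genes and all lists were chosen with earlier results of these data known. The 9 genes are always named, then up to 4 called genes per list and comparison and the 3 genes most like each. Total depth is unknown. Relative depth came from low values of 55 genes. Of these values, 63.4% lay within 0.05 fragments of a whole number, against 19.1% with shuffled depths. Depths were fitted to reach whole numbers in these same values and not refitted after shuffling, so this contrast does not test them.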

Additional observations from a re-analysis of the deposited data

Results flagged for a closer look

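Of 54 sets of 4 to 8 libraries, 10 held 1 library far from the others by Dixon's criterion, which chance gives in about 1 in 20 for normally distributed values. It was applied to FPKM without logs, so that rate need not hold here. Ross cardiac Fall 13 library 1206 was far above its group in FBN3 (25.0 FPKM) and CTGF (91.4 FPKM). Illinois abdominal library 1092 was far above its group in FBLN1 (14.5 FPKM) and FBN3 (0.639 FPKM). The other high libraries were Ross abdominal Fall 13 1197 in FBN2 (4.66 FPKM) and 1198 in FBN3 (0.0986 FPKM), Ross cardiac Fall 12 1211 in COL18A1 (39.0 FPKM), Ross abdominal Fall 12 1200 in LAMB2 (32.7 FPKM) and Illinois cardiac 1108 in CTGF (134.7 FPKM). Ross abdominal Fall 12 1202 was far below its group in THBS1 (43.8 FPKM).

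The depot effects of the Ross trials were called different in COL18A1 (-2.002 on the log2 scale) and in THBS1 (2.36), by the tests of the differences given above. These calls were lost in 24 of 31 fits without 1 library for COL18A1 and in 11 of 31 for THBS1.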

How the results depend on the processing

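Of 29 called differences of the 9 genes, among them 3 depot differences of FBN3 that the filter favours, refits without 1 library gave 899 values, of which 97 were no longer called and 0 changed sign. Other settings gave 430 values, of which 54 were no longer called. Of the 29, 21 remained called in a fit of the compared groups only, 24 to 26 under the other scalings, 6 of the 21 it could give with the exact permutation test, 26 and 27 with pseudocounts of 5 and 0.1, 27 with array weights and 25 without the CASQ2 libraries. Uncalled differences became called in 8 refits without 1 library and 22 under other settings. Some of these were depot differences of FBN3 in Ross Fall 12, which are given with no test. Among the others were ITGB1 between Ross depots of Fall 12 (-0.76, adjusted p = 0.0241 with median ratio scaling) and between trials in cardiac fat (-0.98, adjusted p = 0.0404 without the CASQ2 libraries). Uncalled differences changed sign with no call in either fit in 38 refits without 1 library and 36 under other settings, COL18A1 between the depots of Ross Fall 12 among them. Only LAMB2 changed sign into a call, with the floor missing or its 3 libraries left out: 1.13 between the Ross depots and 1.35 in Fall 12. The exact permutation test cannot go below 0.0286 with 4 against 4 libraries, so no such call could survive adjustment. Where calls could, it lost FBN2, CTGF and COL18A1 between lines in abdominal fat (adjusted p = 0.0583, 0.0754 and 0.0961) and FBN2 between Illinois depots (adjusted p = 0.0786).

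Counts of called genes among the 423 tested moved as follows. For the Ross depots in Fall 12 the 55 calls became 35 in a fit of the compared groups only, 87 with array weights and 20 without the CASQ2 libraries. The line effect in abdominal fat fell from 67 to 43 with a pseudocount of 5. In cardiac fat the 24 line calls became 41 with median ratio scaling, 1 with the compared groups only and 40 with array weights. The trial effect in cardiac fat went from 44 to 18 with a filter of 5 FPKM and 13 with the compared groups only. The difference of depot effects between lines went from 14 to 27 with a pseudocount of 0.1, 28 with a filter of 5 FPKM, 46 with an additive trial term and 6 with the compared groups only. That between trials went from 5 to 0 with a pseudocount of 5, 15 with no filter, 2 with quantile normalization and 14 with array weights. Leaving out 1 library gave 101 to 130 calls for the Ross depots, 38 to 62 in Fall 12, 43 to 74 in Fall 13, 67 to 91 for Illinois, 32 to 78 and 8 to 36 for the line in abdominal and cardiac fat, 84 to 115 and 26 to 46 for the trial, and 7 to 33 and 0 to 10 for the differences between lines and between trials. The cause of these moves was not tested.

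Column headers hold a number that 15 abdominal and 15 cardiac libraries share. Their deviations from the group means correlated at -0.11 to 0.46 (median 0.13) within a number. The median with other numbers was -0.02. Deviations cancel within a group, so this value largely follows from the first and is no separate baseline. Of the 15 pairs, 9 were over 0.1 and 6 were best with their own number. Libraries sharing a number thus had a positive correlation by median, but no label says that the number marks a bird. These values do not settle whether the libraries are paired, so the main fit has no pairing and the block fits are alternatives. With a fixed block for this number, 17 of 19 called differences of the 9 genes that it could give stayed called. CTGF between Ross depots (adjusted p = 0.0507, limma) and the THBS1 difference of depot effects between trials (adjusted p = 0.0524, limma) were lost. This block cannot give the trial or line differences themselves. The difference of depot effects between lines then had 27 calls, and 36 with a random block. The random block kept 29 of 29 and also called ITGB1 between the depots of Ross Fall 12 (adjusted p = 0.0432). These tallies include depot differences of FBN3, which are given with no test. FBN3 levels in Ross abdominal fat rested on about 2 to 24 fragments per library, which could be off by a whole factor.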
